A study of Mus musculus with 6 samples.

Results

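The globin and erythroid genes described here are Hba-a1, Hbb-b2, Hbb-b1, Car2, Gata1, Alas2, Epor and Klf1. These 8 genes, of 9206 named on the 6 Affymetrix arrays of the series, were read by 21 of 25470 probe sets, counting those annotated to a member together with other globin genes. The genes were chosen on their transgenic over wild-type ratios in these same arrays, so the levels and ratios of the 8 genes are given as a description, without a test. RNA came from sorted CD4+CD8+ double-positive thymocytes, the immature stage at which alpha-beta T cells are selected, of Sox13 transgenic C57BL/6 mice and of wild-type C57BL/6 littermates. All mice were 6-week-old females, and each sort pooled at least 2 mice. The promoter that drives the transgene is not given in the sources used here. In experiment 1 the RNA was hybridised to a pair of arrays with separate probe sets, Mu11K A and Mu11K B, and in experiment 2 to MG-U74Av2, here U74A. Each genotype had 1 array of each of the 3 types. The series asked which transcripts of double-positive cells depend on a transgene for Sox13, an HMG-box transcription factor.

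Adult hemoglobin is a tetramer of alpha and beta chains, each holding a heme group, and its messages fill the late erythroblast and the reticulocyte. The transcription factors Gata1 and Klf1 drive the erythroid program, the receptor Epor carries the erythropoietin signal, Alas2 makes the erythroid form of the rate-limiting enzyme of heme synthesis, and Car2 encodes a carbonic anhydrase abundant in red cells. Double-positive thymocytes are not an erythroid cell type. C57BL/6 mice carry the beta-globin haplotype with the adult genes Hbb-bs and Hbb-bt, whereas Hbb-b1 and Hbb-b2 name the adult genes of another haplotype. The probe sets annotated to Hbb-b2 may therefore read the closely related Hbb-bs and Hbb-bt transcripts in these animals. Probe set names with _f_ or _s_ mark probes shared among members of a gene family or among related transcripts, so such globin probe sets do not separate one copy from another.

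Levels are given as intensities after scaling, with a 2% trimmed mean of 500 on every array, and those under a floor of 100 are taken as 100. A ratio against a level at the floor is a bound, written "at least". With 1 array per genotype and array type there is no spread between replicates within an array type. On an array, 46.9% to 57.4% of the probe sets lay above the floor. The labels describe the wild-type cells as lacking Sox13 expression. The Sox13 probe set of experiment 1 read 5951 in the transgenic sample and under 100 in the wild type, and that of experiment 2 read 3832 in the transgenic and 599.6 in the wild-type sample. All 11 double-positive markers on the Mu11K arrays and all 12 on U74A lay above the floor in both genotypes. In experiment 1, Rag2 was 4.07-fold and Cd1d1 2.17-fold lower in the transgenic sample and Ptcra 3.05-fold higher. In experiment 2, 0 of these markers' probe sets differed 2-fold, where 0.555% of all on U74A were higher and 0.322% lower. The 3'/5' ratio of beta-actin, a measure of RNA integrity, was 1.08 in the transgenic and 1.32 in the wild-type sample on Mu11K B, and 1.36 against 1.58 on U74A. That of Gapdh was 1.18 against 0.870 on Mu11K B and 0.766 against 0.792 on U74A.

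Adult globin transcripts were higher in the transgenic samples on all 3 array types. Of the 10 adult globin probe sets, 8 were 2-fold or more higher, 1 was nearly equal in the genotypes and 1 lay below the floor in both. The median log2 ratio of the 9 above the floor was 2.65, with bounds taken at their value. Over all probe sets above the floor in both genotypes, the median was -0.03 for Mu11K A, -0.10 for Mu11K B and -0.02 for U74A. In bulk RNA of a sort, fewer or more cells of a type and less or more RNA per cell cannot be told apart.

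Alpha-globin, the chain encoded by the paired genes Hba-a1 and Hba-a2, was read by 6 probe sets. On Mu11K A, C77409_rc_f_at, annotated to both genes, read 1399.8 in the transgenic and 452.9 in the wild-type sample, a 3.09-fold difference. C79775_rc_f_at, with the same annotation, read 649.7 in the transgenic sample and a negative deposited intensity of -688 in the wild type, at least 6.50-fold higher. Both alpha-globin probe sets of Mu11K A were thus well above their wild-type levels.

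The Mu11K B array held 2 Hba-a1 probe sets that did not behave alike. The probe set v00714_f_at read 1862 in the transgenic and 131.0 in the wild-type sample, 14.2-fold higher. Its wild-type level was close to the floor. Msa.41.0_at read 299.4 in the transgenic and 305.5 in the wild-type sample, a log2 ratio of -0.03. The annotation assigns both, and the Hba-a1 probe set of U74A, to the same GenBank record, so 3 probe sets of this record gave 2 large ratios and 1 near 0. On U74A, the probe set of Hba-a1 alone read 1642 in the transgenic and 242.4 in the wild-type sample, 6.77-fold higher. The family probe set shared with Hba-a2 read 701.3 in the transgenic and 222.5 in the wild-type sample, 3.15-fold higher. Averaged over its alpha-globin probe sets, experiment 1 gave a log2 ratio of 2.03 and experiment 2 one of 2.21 (mean 2.12 ± 0.12, SD, n = 2 experiments). The experiment 1 value includes the bound of C79775_rc_f_at, 2.70, which was 3.70 with a floor of 50, so this mean and its small SD depend on the floor.

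Beta-globin was read by 4 probe sets, 1 on Mu11K B and 3 on U74A. On Mu11K B, v00722_f_at, annotated to Hbb-b2, read 901.6 in the transgenic and 109.7 in the wild-type sample, 8.22-fold higher, again with a wild-type level close to the floor. On U74A, a shared probe set annotated to Hbb-bt, Hbb-bs, Hbb-b2 and Hbb-b1 together, read 2383 in the transgenic and 379.9 in the wild-type sample, 6.27-fold higher. The probe set of Hbb-b2 alone read 291.2 in the transgenic sample against 15.1 in the wild type, which is below the floor, so the difference was at least 2.91-fold. The remaining probe set is also annotated to all 4 adult beta-globin genes and read 21.7 in the transgenic and 23.7 in the wild-type sample, below the floor in both. Hbb-b1 had no probe set of its own and was read only through these shared U74A probe sets. Over the beta-globin probe sets above the floor, experiment 1 gave 3.04 and experiment 2 gave 2.10 (mean 2.57 ± 0.67, SD, n = 2 experiments). The experiment 2 value includes the bound of the Hbb-b2 probe set, 1.54, which was 2.54 with a floor of 50, so this mean and its SD depend on the floor.

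**Figure D1:**
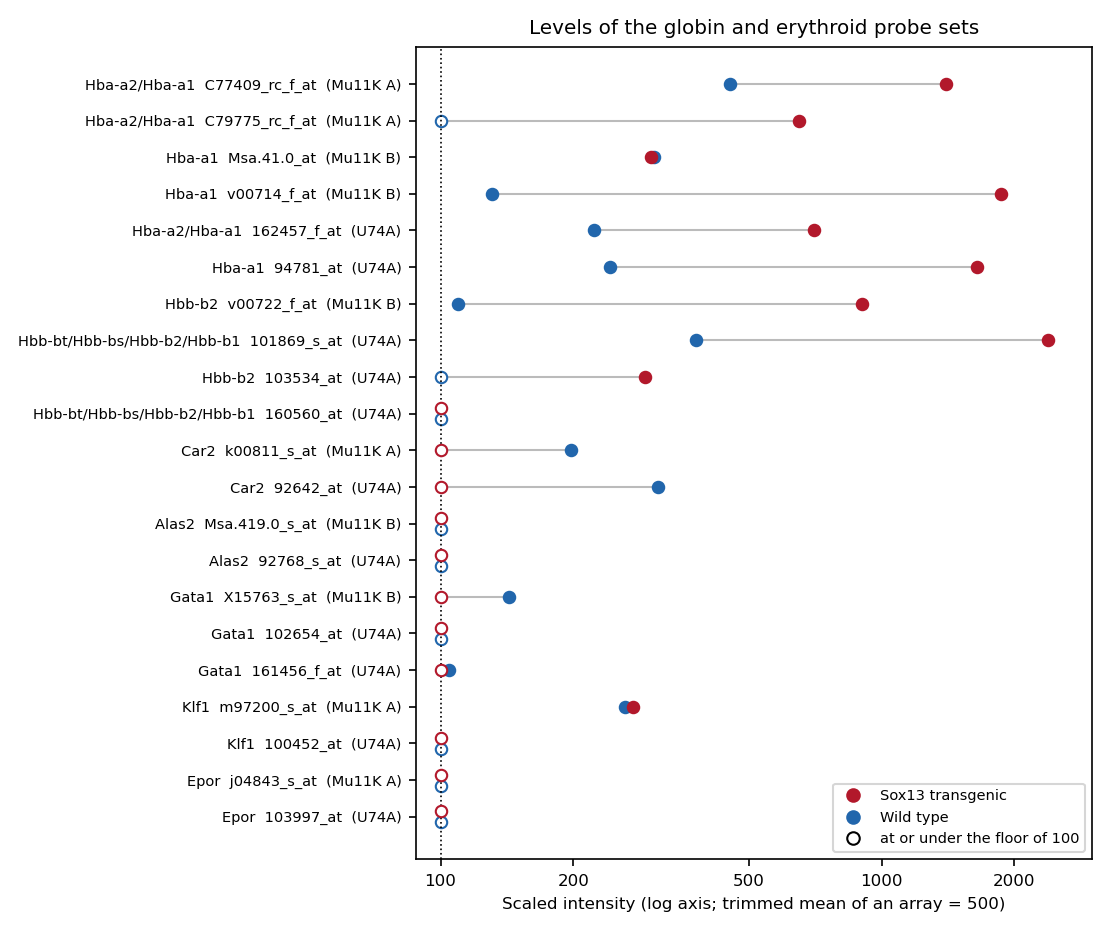
Scaled intensity (log axis, trimmed mean of an array 500) of the 21 probe sets in Sox13 transgenic samples (red) and wild-type samples (blue), with open circles for levels at or under the floor of 100. The transgenic level lies far to the right for 8 of the 10 adult globin probe sets, while Car2 lies to the right in the wild type and Alas2 and Epor stay at the floor.

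The globin promoters are shown because alpha and beta chains are encoded on different chromosomes and were both higher. The RefSeq promoter windows (GRCm38.p6) are 300 bases long and span the gene start. Of the 8 genes, 5 matched an entry. The windows printed are those of Hba-a1 and of the C57BL/6 adult beta-globin genes Hbb-bs and Hbb-bt, followed by the embryonic genes Hba-x and Hbb-y. Capitals mark the letters of 4 motifs. The GATA motif was searched as AGATAA and also as TGATAA, the CACCC box bound by Klf1 as CCACACCC and also as CCGCACCC or else as CCCCACCC, and the CCAAT box by its name, all on either strand. The TATA box was searched as TATAAA and also as ATAAAA on the gene strand. The spellings of the TATA box may overlap each other.
Hba-a1, chr11:32283422-32283721, plus strand: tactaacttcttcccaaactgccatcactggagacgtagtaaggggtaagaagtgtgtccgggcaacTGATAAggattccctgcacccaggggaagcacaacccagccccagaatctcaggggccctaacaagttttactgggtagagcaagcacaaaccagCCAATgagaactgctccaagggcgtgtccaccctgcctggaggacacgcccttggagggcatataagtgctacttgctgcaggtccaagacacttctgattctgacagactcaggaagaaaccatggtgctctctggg
Hbb-bs, chr7:103827879-103828178, minus strand: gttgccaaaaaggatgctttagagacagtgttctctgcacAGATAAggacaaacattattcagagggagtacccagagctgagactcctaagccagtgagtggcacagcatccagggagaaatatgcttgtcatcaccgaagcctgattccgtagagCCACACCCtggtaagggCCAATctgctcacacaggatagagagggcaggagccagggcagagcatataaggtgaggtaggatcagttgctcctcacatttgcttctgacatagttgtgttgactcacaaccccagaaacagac
Hbb-bt, chr7:103813874-103814173, minus strand: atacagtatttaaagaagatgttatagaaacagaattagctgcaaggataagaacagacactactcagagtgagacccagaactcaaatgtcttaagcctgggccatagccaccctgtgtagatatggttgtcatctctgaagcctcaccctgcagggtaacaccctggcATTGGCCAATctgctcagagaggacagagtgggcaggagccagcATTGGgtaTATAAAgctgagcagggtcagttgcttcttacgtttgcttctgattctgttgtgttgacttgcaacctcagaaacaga
Hba-x, chr11:32276350-32276649, plus strand: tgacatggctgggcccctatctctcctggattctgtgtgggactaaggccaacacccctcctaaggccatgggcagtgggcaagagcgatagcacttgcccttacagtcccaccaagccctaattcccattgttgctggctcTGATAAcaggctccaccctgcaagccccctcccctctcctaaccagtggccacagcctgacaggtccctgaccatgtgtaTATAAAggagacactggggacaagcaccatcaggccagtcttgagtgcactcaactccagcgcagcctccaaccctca
Hbb-y, chr7:103853158-103853457, minus strand: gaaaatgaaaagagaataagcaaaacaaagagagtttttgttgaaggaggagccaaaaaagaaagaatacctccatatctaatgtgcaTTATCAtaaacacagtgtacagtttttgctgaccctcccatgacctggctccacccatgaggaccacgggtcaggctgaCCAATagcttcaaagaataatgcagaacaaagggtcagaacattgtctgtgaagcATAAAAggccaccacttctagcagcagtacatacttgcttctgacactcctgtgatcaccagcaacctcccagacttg

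The Hba-a1 window held TGATAA starting at position -183 and CCAAT at -88, counted from the gene start. The Hbb-bs window held AGATAA at -210, CCACACCC at -93 and CCAAT at -76. The Hbb-bt window held TATAAA at -28 and 3 matches to CCAAT on either strand, of which a reverse match at -80 abuts a forward match at -75. In the embryonic windows, Hba-x held TGATAA at -108 and TATAAA at -28, and Hbb-y held a reverse GATA match at -162, CCAAT at -83 and ATAAAA at -28. Of all 32851 promoter windows of this length, 18.6% held a GATA match, 14.5% a CACCC match, 37.4% a CCAAT match and 15.4% a TATA match. The letters AACAAT, a core of SOX binding sites, were found on either strand in 10.7% of all windows, in the Hba-x window at -122, and not in the other 4 printed windows. The Hba-a1 and Hba-a2 windows were identical at 297 of 303 aligned positions (98.0%), against 71.3% for Hbb-bs and Hbb-bt. A match is a description of letters only.

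The globin genes of the embryo and the globin pseudogenes, which the choice of genes did not include, had 12 probe sets, and 0 of them differed 2-fold. Of these, 9 lay below the floor in both genotypes, among them all 5 probe sets of Hbb-y, the embryonic epsilon-like gene. Only the other 3 could differ. Of all probe sets, 2.72% on Mu11K A, 3.36% on Mu11K B and 0.555% on U74A were 2-fold higher. In the same order, 6.99%, 7.61% and 0.322% were 2-fold lower, so a count of 0 among 3 sets these genes apart from no others. Hba-x, the embryonic zeta chain, read 127.2 in the transgenic sample on Mu11K A and 97.0 in the wild type, just below the floor, and was below the floor in both on U74A. For Hbb-bh1, an embryonic beta-like gene, the Mu11K B probe set read 420.2 in the transgenic and 497.4 in the wild-type sample, a log2 ratio of -0.24, and its other probe sets lay below the floor. The alpha pseudogene Hba-ps3 read 221.1 in the transgenic and 269.2 in the wild-type sample on U74A, a log2 ratio of -0.28. The difference between adult and other globin probe sets was not tested.

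Counted over all 8 genes, 2 of 5 probe sets were 2-fold or more higher in the transgenic sample on Mu11K A, where 2.72% of all probe sets were. On Mu11K B, 2 of 5 were higher, against 3.36% of all, and on U74A 4 of 11, against 0.555%. In the lower direction the counts were 0 of 5 on Mu11K A, where 6.99% of all probe sets were lower, 0 of 5 on Mu11K B, against 7.61%, and 1 of 11 on U74A, against 0.322%. Since these ratios chose the genes, the counts are given for orientation only. The smallest ratio counted as 2-fold higher was that of the U74A probe set of Hbb-b2, with a log2 ratio of at least 1.54 (2.91-fold). In the lower direction, Car2 on Mu11K A lay just outside the 2-fold line, at least 1.98-fold lower (-0.98). Both are bounds, so their places relative to the line depend on the floor. With a floor of 50 the Car2 ratio was -1.86.

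**Figure D2:**
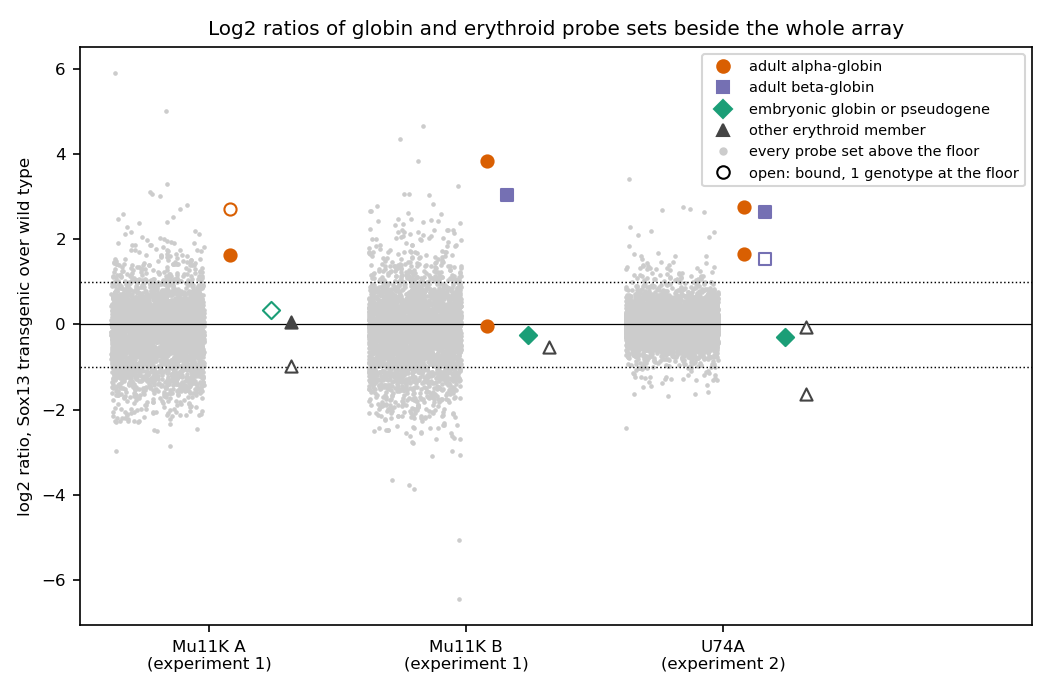
Log2 ratio of transgenic over wild type on each array type for adult alpha-globin, adult beta-globin, embryonic or pseudogene globin and other erythroid probe sets above the floor in at least 1 genotype (open symbols are bounds), beside every such probe set of the array (grey) and the 2-fold lines (dotted). Adult globin probe sets lie between 1.54 and 3.83 except 1 at -0.03, and the embryonic and pseudogene ones between -0.28 and 0.35.

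Of the erythroid members other than globins, 0 probe sets were 2-fold higher in the transgenic samples. The share of all probe sets 2-fold higher was 2.72% on Mu11K A, 3.36% on Mu11K B and 0.555% on U74A. Of the 11 probe sets of these members, 6 lay below the floor in both genotypes. Above the floor were 1 in the transgenic samples and 5 in the wild type. Only 5 could thus differ, and a count of 0 among 5 sets these members apart from no others. Alas2, the erythroid enzyme that starts heme synthesis, was below the floor in both genotypes on Mu11K B and U74A, at 20.5 in the transgenic and 24.1 in the wild-type sample on U74A. Epor was likewise below the floor in both genotypes, at 36.0 in the transgenic and 21.9 in the wild-type sample on U74A and at negative intensities on Mu11K A. Alas2 and Epor therefore gave no ratio.

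Klf1 read 273.1 in the transgenic and 262.5 in the wild-type sample on Mu11K A, a log2 ratio of 0.06, and lay below the floor in both on U74A, at 90.4 in the transgenic and 89.1 in the wild-type sample. Gata1 was below the floor in the transgenic sample on Mu11K B and at 143.2 in the wild type, at least 1.43-fold lower. On U74A its family probe set read 75.5 in the transgenic and 104.6 in the wild-type sample, and the other read 91.4 in the transgenic and 76.5 in the wild-type sample, below the floor in both. On Mu11K B and U74A, the arrays that carry it, Gata1 was thus below the floor in the transgenic sample and at most slightly above it in the wild type.

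Car2 was lower in the transgenic samples of both experiments. On Mu11K A it read 54.7 in the transgenic sample, below the floor, and 197.9 in the wild type, at least 1.98-fold lower. On U74A it read 99.6 in the transgenic sample, just below the floor, and 310.8 in the wild type, at least 3.11-fold lower. The mean log2 ratio was -1.31 ± 0.46 (SD, n = 2 experiments), with the transgenic level taken at the floor. Both ratios are thus bounds, and this SD reflects only the wild-type levels of the 2 experiments, not the spread of the difference. With a floor of 200, Car2 on Mu11K A was at the floor in both genotypes and its direction rested on U74A alone. Among U74A probe sets above the floor in either genotype, 0.0281% had a lower ratio than Car2, against 12.0% on Mu11K A. Car2 and the adult globins, all abundant in red cells, thus differed in opposite directions. Car1, another red-cell carbonic anhydrase, read 113.9 in the transgenic and 108.7 in the wild-type sample on Mu11K A and was below the floor in both on U74A.

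A wider list of 89 erythroid genes, members left out, was followed by role. Of these, 60 were on an array under their own symbol, 47 lay above the floor somewhere and 34 were measured in both experiments. They were tested with limma on the log2 ratios of the 2 experiments, fitted on all 3237 genes measured in both, of which 0.154% passed as higher and 0% as lower at an adjusted p under 0.05. Of the 34 genes, 0 passed in either direction, and the smallest adjusted p was 0.657 (limma). That was Jak2, with a mean log2 ratio of -1.01, so with 2 ratios per gene even a 2-fold mean change did not pass. The counts of 0 here and by role are therefore no evidence that these genes were unchanged. At an unadjusted p under 0.05 there were 1 higher and 2 lower, against 2.5% higher and 3.92% lower of all genes tested. The median of the mean log2 ratios was -0.03, against -0.04 over all genes tested.

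Among the genes of heme synthesis and its mitochondrial import, 6 were tested and 0 passed. Uros, which makes uroporphyrinogen III, had log2 ratios of -0.32 and -0.27 in experiments 1 and 2, and Ppox, a late enzyme of the pathway, of -0.05 and -0.02. The experiment 1 value of Ppox averages 3 probe sets of opposite sign, at 0.64 and at bounds of -0.69 and -0.10. Fech, which inserts iron in the step that makes heme, was below the floor on the Mu11K A and U74A arrays that carry it. In iron and heme handling, where 4 were tested and 0 passed, the iron importer Slc11a2 had 1.10 and 0.40. The transferrin receptor Tfrc had a bound of -0.70 in experiment 1, where its transgenic level of 14.9 was below the floor, and -0.03 in experiment 2, the average of probe sets at 0.26 and -0.31. Ireb2, an RNA-binding regulator of iron genes, had -1.79, with a transgenic level of 102.3 just above the floor, and -0.15. The ratios of all 3 genes were larger in size in experiment 1.

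Of the membrane and skeleton genes, 5 were tested and 0 passed. Slc4a1, the anion exchanger of the red-cell membrane, read 436.3 in the transgenic and 427.7 in the wild-type sample on Mu11K A. Its Mu11K B probe set read 283.3 in the transgenic and 251.9 in the wild-type sample, and its U74A probe set 92.0, below the floor, in the transgenic and 106.6 in the wild-type sample. Ank1, the ankyrin that anchors it, had log2 ratios of -0.47 and -0.20, and the broadly expressed surface protein gene Cd47 0.57 and 0.24. Epb42, Rhag, Rhd and Dmtn, further genes of the red-cell membrane, were below the floor wherever measured. Their levels gave no ratio.

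Of the transcription factors, 8 were tested and 0 passed. Zfpm1, the cofactor of Gata1 also called FOG-1, had 1.49 and 0.22 and was the gene higher at an unadjusted p under 0.05, although its 2 Mu11K A probe sets differed, at 2.02 and 0.96. Hemgn, a nuclear protein of hematopoietic cells, had -0.30, at the floor in the transgenic sample, and -0.08, and Klf3, a relative of Klf1, -0.14 and -0.04. Nfe2, Tal1 and Gfi1b, factors of the erythroid and megakaryocytic lineages, and Sox6, a close relative of Sox13 known for its part in silencing embryonic globin, were below the floor in both genotypes. Their levels gave no ratio either.

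Of the receptor and signalling genes, 6 were tested and 0 passed. Jak2, the kinase bound to Epor, had log2 ratios of -1.34 and -0.68 and, with Ireb2, was lower at an unadjusted p under 0.05. In experiment 1, 2 of the 3 Jak2 probe sets averaged were at the floor in the transgenic sample, so -1.34 includes bounds. On U74A it read 331.0 in the transgenic and 530.8 in the wild-type sample. Stat5b, a target of Jak2, had -0.51 and -0.63, and Cish, a target gene of STAT5, -0.13 and -0.09. Of the red-cell enzymes, 5 were tested and 0 passed, with Prdx2, an abundant peroxiredoxin of red cells, at 0.41 and 0.09, catalase (Cat) at -0.83 and -0.33, and superoxide dismutase (Sod1) at 0.26 and 0.38. The experiment 2 values of Ank1, Klf3 and Prdx2 each average probe sets of opposite sign. Of the 42 genes of the list measured in experiment 1, 2 were 2-fold higher, Slc11a2 and Zfpm1, where 5.25% of all genes measured there were. Another 4 were 2-fold lower, against 11.7% of all genes, namely Ireb2, Jak2, Nfe2l2 and Bpgm. Of these, Nfe2l2 (-1.35) and Bpgm (-1.49) were named after their values were seen. The transgenic levels of Ireb2 (102.3) and Nfe2l2 (104.6) were just above the floor. In experiment 2 the counts were 0 higher and 0 lower of 39 genes, against 0.855% and 0.446% of all.

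**Figure D3:**
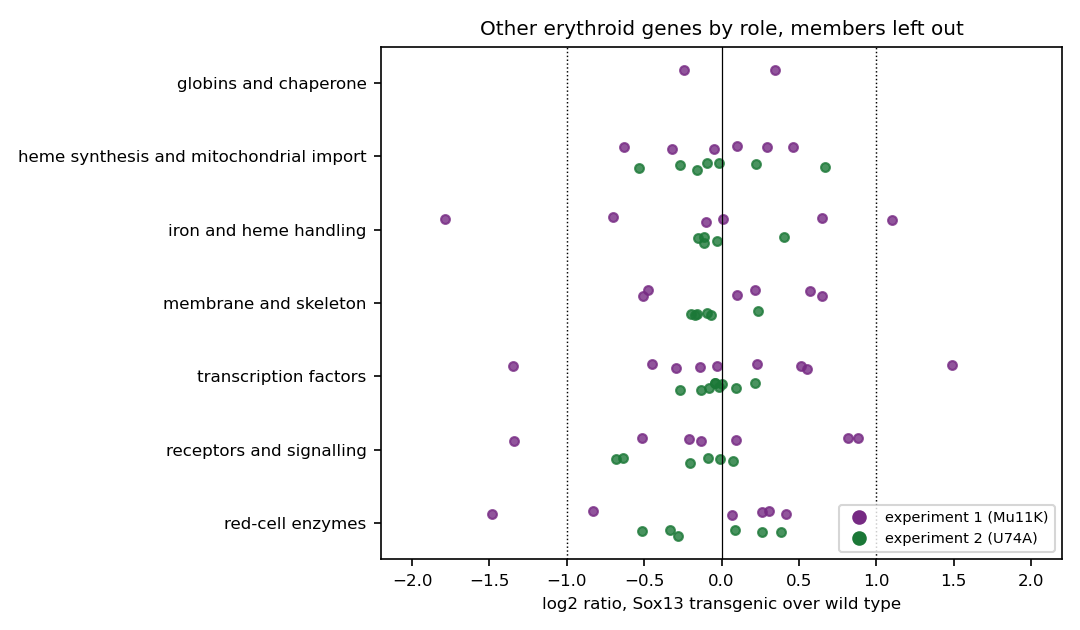
Log2 ratio (transgenic over wild type, x axis) of the wider erythroid genes above the floor, by role (y axis), in experiment 1 (purple) and experiment 2 (green), with the 2-fold lines dotted. The median of the list is 0.04 in experiment 1 and -0.09 in experiment 2, and 0 genes pass 2-fold in experiment 2.

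Markers of other cell types were set beside the globins, as sums of the scaled intensities above the floor. Of the red-cell and erythroblast markers beyond the 8 genes, 6 were on the arrays of experiment 1, with 1 above the floor in the transgenic and 3 in the wild-type sample, and a sum of 719.6 in the transgenic against 965.3 in the wild-type sample. In experiment 2, 8 were on the array, with 2 above the floor in the transgenic and 3 in the wild-type sample, and sums of 2247 and 2815 in the same order. Platelet and megakaryocyte markers, of which 1 and 6 were on the arrays of experiments 1 and 2, were all below the floor. In experiment 1, Slc4a1 alone was above the floor in both genotypes and read slightly higher in the transgenic sample, and the sum differed through Tfrc (162.9) and Hemgn (122.9), which passed the floor only in wild-type cells. In experiment 2 most of the sum was Tfrc, whose brighter probe set read 1992 in the transgenic and 2471 in the wild-type sample. Of the 7 and 11 probe sets of the red-cell and erythroblast markers in experiments 1 and 2, 0 differed 2-fold. The shares of all probe sets were 2.72% higher and 6.99% lower on Mu11K A and 3.36% and 7.61% on Mu11K B. On U74A they were 0.555% and 0.322%. Many of the marker probe sets lay below the floor in both genotypes and could not differ, so a count of 0 sets them apart from no others. The part of red cells in the globin ratios was not tested.

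Some B cell and myeloid markers were higher in the samples with the higher globin levels, several of the myeloid ones in experiment 2 only. The B cell sum was 29578.5 in the transgenic and 18458 in the wild-type sample of experiment 1 and 18069 against 15683 in experiment 2, with 5 of 20 and 3 of 26 probe sets 2-fold higher and 0 lower. In experiment 1 all 5 belonged to Cd74 and H2-Aa, genes of the MHC class II pathway that other antigen-presenting cells also express, while Ms4a1 read 699.2 in the transgenic and 769.8 in the wild-type sample. In experiment 2 the 3 belonged to H2-Aa, Ighm and Ms4a1. The Ighm probe set was a dim one (365.0 in the transgenic, 146.9 in the wild-type sample), while the brightest read 10560 and 10340 in the same order. The Ms4a1 ratio was a bound of 2.01-fold. Under 2-fold on U74A, Cd74 (1.94-fold) and Cd79a (1.76-fold) were higher, and Cd79b (1.17-fold) and a Pax5 probe set (1.10-fold) lower. Most of the B cell sum in both experiments came from Ighm. Of all probe sets, 2.72% on Mu11K A, 3.36% on Mu11K B and 0.555% on U74A were 2-fold higher. Cd22 was below the floor in both genotypes of both experiments, and Cd79a and Pax5 in experiment 1. The myeloid sum was 3573 in the transgenic and 3999 in the wild-type sample of experiment 1 and 2363 against 943.6 in experiment 2, with 7 of 12 and 8 of 13 genes above the floor in the transgenic and 6 and 5 in the wild-type samples. Of the myeloid probe sets, 1 of 15 and 5 of 18 were 2-fold higher and 0 lower. Ctss was the 1 of experiment 1 and among the 5 of experiment 2, with C1qa, C1qb, C1qc and Lyz2. In experiment 1, Lyz2 (log2 ratio -0.32), C1qc (-0.42) and C1qb (-0.78 and -0.58) were lower, and C1qa was below the floor in both genotypes. Adgre1, Fcgr3 and S100a9 were below the floor throughout. Vessel markers, with Cdh5, Tek and Tie1 below the floor throughout, summed to 688.8 in the transgenic and 691.3 in the wild-type sample of experiment 1. In experiment 2 the sums were 632.0 and 1166 in the same order. In experiment 1 Pecam1 was at least 2.15-fold lower, the only vessel probe set past 2-fold, where 6.99% of all on Mu11K A were lower. Eng was 1.88-fold higher there. In experiment 2 Pecam1 was at least 1.87-fold and Eng 1.38-fold lower. The part of these cells in the globin ratios was not tested.

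Genes flanking the globin clusters within 200 kb were also read. Near the alpha cluster, Snrnp25, a spliceosomal protein gene, had log2 ratios of 0.48 and 0.29 in experiments 1 and 2, and Mpg, a DNA repair glycosylase gene, 0.37 and -0.43, while Il9r was below the floor. No flanking gene of the beta cluster was named by a probe set here. The average over the alpha-globin probe sets was larger than the ratio of either flanking gene in both experiments, although the discordant Hba-a1 probe set of Mu11K B, at -0.03, lay below both in experiment 1. The difference was not tested.

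The genes whose pair of log2 ratios lay nearest to the globins were sought among the other 3233 genes measured in both experiments, by Euclidean distance from the mean of Hba-a1 and Hbb-b2 (2.47 and 2.15). The nearest were Plac8, a cysteine-rich protein gene (distance 0.64), the interferon-response genes Isg15 (1.05) and Usp18 (1.06), the granzyme gene Gzma (1.09) and BC147527 (1.41). The nearest to Car2 were Mllt11 (0.40), Zdhhc14 (0.46), Phf7 (0.48), Ranbp10 (0.71) and Smap2 (0.72). The likeness rests on 2 experiments, with levels at the floor taken as the floor.

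**Figure D4:**
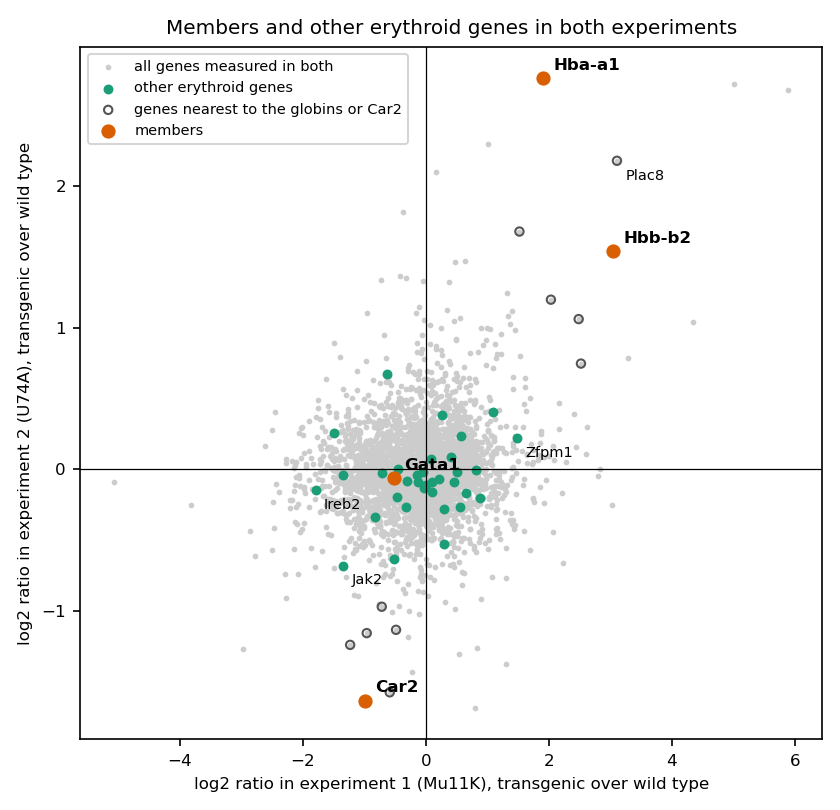
Log2 ratio of transgenic over wild type in experiment 1 (x axis) and experiment 2 (y axis) of the 3237 genes measured in both (grey), with the members (orange), other erythroid genes (green) and the genes nearest to the globins or Car2 (open circles). Hba-a1 and Hbb-b2 lie at the upper right and Car2 at the lower left, away from Gata1 and most other erythroid genes near the origin.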

How the data were processed

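Affymetrix Mu11K A, Mu11K B and MG-U74Av2 arrays were read from 1 Sox13 transgenic and 1 wild-type sample each. For every probe set the authors deposited 1 linear intensity. According to the series text they used Microarray Analysis Software versions 4 and 5; the submitters' processing notes name MAS5 for U74A. Neither the scaling target nor the version behind the Mu11K intensities is given in the sources used here. Control probe sets, and 21 Mu11K A probe sets without a wild-type value, were left out.

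Here the deposited intensities were multiplied to bring the 2% trimmed mean of an array to 500, floored at 100 and put on a log2 scale. Genes were named from the platform annotation and RefSeq (GRCm38.p6), which changed 0 names. A gene's log2 ratio in an experiment is the mean over its probe sets of 1 symbol above the floor on at least 1 array, and Mu11K A and B together form experiment 1. The fit was limma (version 3.58.1, R 4.3.3) on the 2 ratios per gene, testing the mean ratio against 0 (two-sided, p-values adjusted by Benjamini-Hochberg). It was tested on simulated data. Nothing says whether the samples of the experiments came from separate animals. The limma p-values set the mean of a gene's 2 ratios against a variance drawn mostly from all genes. They therefore do not measure spread between animals or, for the most part, between a gene's own 2 ratios. Wider list genes were named where they passed the test, were 2-fold the same way in both experiments, or were among the top 3 of a role by the smaller absolute ratio of 1 sign. Other genes of that list (Slc4a1, Fech, Car1, Epb42, Rhag, Rhd, Dmtn, Nfe2, Tal1, Gfi1b, Sox6, Nfe2l2 and Bpgm) were named after their values were seen. Promoter motifs were matched exactly. The members, lists and tests were chosen with earlier results of these data known. Precision is limited by the small number of arrays.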

Additional observations from a re-analysis of the deposited data

How the results depend on the processing

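The 8 higher adult globin probe sets kept their direction under all 6 alternatives (a floor of 50 or 200, median, quantile or loess scaling, and no scaling), with log2 ratios from 0.54 to 4.29. The lowest was the U74A probe set of Hbb-b2 with a floor of 200, which took it under 2-fold. Leaving out the scaling could hardly move a ratio, since the deposited trimmed means of the genotypes were nearly equal on each array type. On Mu11K A it moved the log2 ratios by a median of -0.001, so keeping direction there says little. The ratio of a bound moves with the floor by construction. With a floor of 50, Car2 on Mu11K A and Gata1 on Mu11K B also passed 2-fold lower (1 on each array, against 0), and with a floor of 200 Car2 on U74A did not (0, against 1). At that floor Car2 on Mu11K A was at the floor in both genotypes, so its value of -0.64, against -1.31, is that of experiment 2 alone and being lower in both experiments is lost. The mean of Hbb-b2 was then 1.36, against 2.29. The mean of Hba-a1 was 2.33, and 3.29 with the brightest probe set, which leaves out the discordant probe set of Mu11K B. Leaving out an experiment gave 1.90 to 2.76 for Hba-a1, 1.54 to 3.04 for Hbb-b2 and -1.64 to -0.98 for Car2. Median scaling moved the log2 ratios of probe sets above the floor in both genotypes by a median of 0.33 on Mu11K A and 0.46 on Mu11K B, quantile scaling by 0.15 and 0.19, and loess by 0.12 and 0.17. Counts of all probe sets 2-fold higher ranged from 120 to 359 (177 as reported), 153 to 587 (220) and 34 to 156 (69) on Mu11K A, Mu11K B and U74A, and lower from 223 to 631 (455), 307 to 734 (498) and 13 to 133 (40). The wider list gave 0 genes past limma in every alternative, among them no filter, only genes above the floor everywhere and the unpaired fit of levels, while the calls over all genes ranged from 0 to 26. With a floor of 50, no filter or the unpaired fit, 0 of all genes were called, so the list could give no other count there. Levels at or near the floor limit what can be said of Alas2, Epor, Gata1 and Klf1.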
